A study of Homo sapiens with 8 samples.

Results

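The 9 genes described here encode the 3 subunits of the translation initiation factor eIF2 (EIF2S1, EIF2S2 and EIF2S3), the 4 kinases that phosphorylate it (EIF2AK1 to EIF2AK4) and the 2 regulatory subunits that direct phosphatase 1 to it (PPP1R15A and PPP1R15B). They were picked out by gene identity, with no limit on their values, as the rows whose RefSeq transcript belongs to one of these genes. They account for 12 of the 24812 transcripts and 9 of the 14528 named genes in the deposited table. SQ20B is an established human cell line from a head and neck squamous cell carcinoma. The groups were 4 replicates of these cells in normoxia, with no other agent named, and 4 replicates kept in 0.5% O2 for 16 h, from all of which the poly(A) RNA was sequenced in stranded libraries. Nothing in the labels says whether replicates came from separate cultures. For each condition the table gives 1 FPKM value over all replicates, FPKM being a read abundance corrected for transcript length and library size. Because values of single replicates were not analysed here, no spread between replicates, error or test stands behind any difference below, and changes are described by their size alone.

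eIF2 carries the initiator methionyl-tRNA to the small ribosomal subunit as a ternary complex with GTP. Its alpha subunit is phosphorylated under stress on a single serine, and phosphorylated eIF2 blocks its own guanine exchange factor, eIF2B, so that general initiation falls while mRNAs such as that of ATF4 are translated more. Each kinase answers to a different signal: EIF2AK1 (HRI) to heme deficiency and mitochondrial stress, EIF2AK2 (PKR) to double-stranded RNA, EIF2AK3 (PERK) to unfolded protein in the endoplasmic reticulum and EIF2AK4 (GCN2) to uncharged tRNA. Phosphatase 1 removes the phosphate when PPP1R15A (GADD34), which is inducible, or PPP1R15B (CReP), which is constitutive, brings it to eIF2. RNA levels such as those given here say nothing of the phosphorylation itself.

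The coding bases around the phosphorylated serine are shown because this is the site on which all 4 kinases and both phosphatase complexes act. The serine is codon 52 of EIF2S1 counted from the start codon, called Ser51 where the initiator methionine is not counted. The 27 bases shown are codons 48 to 56, with the serine codon in capitals. They lie in exon 2 of 8 of the coding transcript, at chr14:67831626-67831652 of GRCh37 on the plus strand.
EIF2S1 serine site: cttagtgaattaTCCagaaggcgtatc

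The bases that encode the docking motif for the phosphatase 1 catalytic subunit are shown for PPP1R15A, the inducible regulatory subunit, since this is how it recruits the enzyme. Capitals mark the 4 codons of the motif, which begin at codon 555. An exon junction splits the motif after its opening codon, with 9 bases of the window before the junction and 18 after it. The window joins chr19:49378147-49378155 in exon 2 to chr19:49378871-49378888 in exon 3 on the plus strand of GRCh37.
PPP1R15A docking motif: gccagaAAGGTGCGCTTCtccgagaag

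All 9 genes were expressed, with summed FPKM values from 7.31 to 245 in normoxia. Expression here means a mean of at least 0.5 FPKM over the conditions, a limit that 12106 of the named genes passed. Changes are log2((hypoxia FPKM + 0.1)/(normoxia FPKM + 0.1)), and a gene was called when it differed by at least 1.5-fold. Of the 9 genes, 1 (EIF2S1) was called lower and 0 were called higher, against 11.2% of all expressed genes called lower and 9.95% called higher. The median of their log2 values was -0.18 as deposited and 0.04 with the columns scaled to equal sums, against -0.07 and 0.15 for all expressed genes. Of the 9 values 7 lay below 0 and 2 above it, against 56.4% and 43.6% of all expressed genes. No member differed by 2-fold or more, against 3.21% of all expressed genes higher and 2.62% lower by that much. The FPKM columns summed to 536005 in normoxia and 458431 in hypoxia, and scaling them to equal sums raised the median of all genes by 0.22. Under that scaling 4 of the 9 genes lay below 0 instead of 7, because EIF2S3, EIF2AK2 and EIF2AK4 moved above 0. Of all expressed genes 36.2% lay below 0 under that scaling instead of 56.4%. In bulk RNA such as this, fewer cells of a type and less RNA per cell cannot be told apart.

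**Figure D1:**
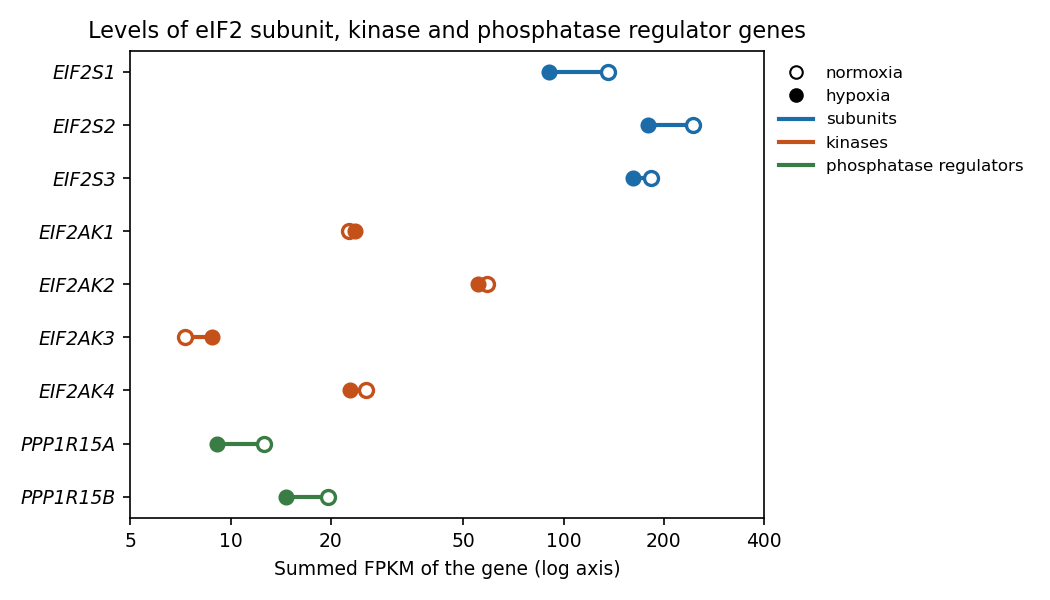
Summed FPKM of each gene on a log axis, with an open circle for normoxia, a filled circle for hypoxia and a line joining them, coloured by role. The subunits lie between 90.2 and 245 FPKM, above the kinases (7.31 to 58.7) and the phosphatase regulators (9.08 to 19.5) in both conditions.

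The subunits were the most abundant of the group and differed in how far they lay below their normoxic level. EIF2S1, the alpha subunit that carries the phosphorylated serine, stood at 136 FPKM in normoxia against 90.2 in hypoxia, which was 1.503-fold lower (-0.59 on the log2 scale). EIF2S2, the beta subunit, which contacts eIF5 and eIF2B, was listed at 245 and 179 FPKM, a log2 change of -0.46. EIF2S3, the gamma subunit, which binds GTP and the initiator tRNA, was listed at 183 and 162 FPKM, a log2 change of -0.18 that became 0.04 with the columns scaled to equal sums and 0.07 after quantile normalization. EIF2S1 and EIF2S2 remained below 0 under these scalings, at -0.36 and -0.23 with equal sums and at -0.35 and -0.13 after quantile normalization.

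EIF2S1 lay only just past the 1.5-fold limit, which is 0.585 on the log2 scale, and PPP1R15A (-0.46) was the nearest member inside it. The call was lost when 1 FPKM was added in place of 0.1, when changes were centred on the median gene, with equal sums and after quantile normalization. Its change stood at percentile 11.1 of all expressed genes. Highly expressed genes had lower changes in general, with a median of -0.29 and 80.8% below 0 among the 1211 genes in the highest of 10 level classes, those above 72.6 FPKM. Within that class EIF2S1 stood at percentile 17.6, EIF2S2 at 29.6 and EIF2S3 at 63.3.

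**Figure D2:**
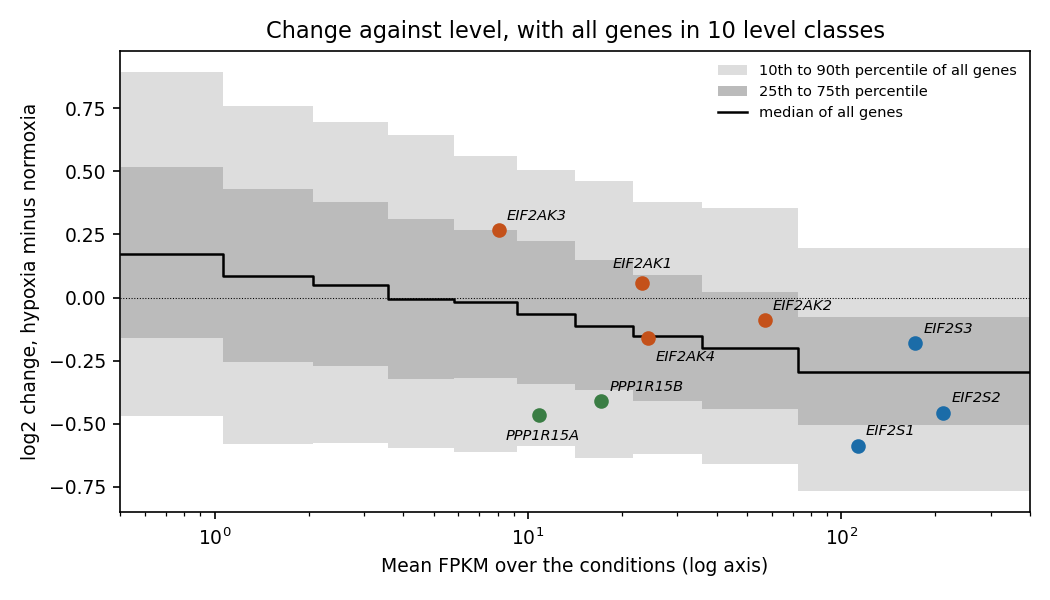
Log2 change (hypoxia minus normoxia) of each gene against its mean FPKM on a log axis, with all 12106 expressed genes drawn as the median and percentile bands of 10 level classes. EIF2S1 and both phosphatase regulators lie below the middle band of genes of their level, and EIF2AK1, EIF2AK2 and EIF2S3 lie above the median of theirs, although EIF2AK2 and EIF2S3 lie below 0 as deposited and above 0 with equal sums or quantile normalization.

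Ratios between subunits are the same whatever single factor scales a column, although quantile normalization, which acts on each level differently, can move them. EIF2S2 was the most abundant in both conditions, EIF2S3 came next and EIF2S1 was the least abundant. EIF2S3 exceeded EIF2S1 1.35-fold in normoxia and 1.79-fold in hypoxia, a difference of 0.41 on the log2 scale. EIF2S2 exceeded EIF2S3 1.34-fold in normoxia and 1.10-fold in hypoxia. The share of EIF2S3 in the summed subunit FPKM was accordingly 32.5% in normoxia and 37.6% in hypoxia, that of EIF2S1 24.03% and 20.95%, and that of EIF2S2 43.5% and 41.5%. Whether these shares differ beyond the spread between replicates could not be tested.

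Some of the genes have copies elsewhere that can share reads with them. The GENCODE annotation of GRCh37 lists 7 processed pseudogenes of EIF2S2, 1 of EIF2AK1 (EIF2AK1P1) and a coding retrogene of EIF2S3, EIF2S3B, on chromosome 12. The values of EIF2S2, EIF2S3 and EIF2AK1 are uncertain to the extent that reads were divided among these copies, which were not analysed here. Each subunit was listed with a single transcript. In hg19 the entries span positions 67827034 to 67853233 of chromosome 14 for EIF2S1 (NM_004094), 32676115 to 32700085 of chromosome 20 for EIF2S2 (NM_003908) and 24073065 to 24096927 of chromosome X for EIF2S3 (NM_001415).

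None of the kinases was called at 1.5-fold, and their log2 changes as deposited ran from -0.16 to 0.27, against -0.59 to -0.18 for the subunits. EIF2AK2, the kinase for double-stranded RNA and itself an interferon-stimulated gene, was the most abundant, at 58.7 FPKM under normoxia and 55.2 under hypoxia, a difference of -0.09 on the log2 scale that became 0.14 with equal sums and 0.10 after quantile normalization. EIF2AK4, the amino acid sensor, was listed at 25.5 and 22.8 FPKM, a log2 change of -0.16 that became 0.06 with equal sums and -0.05 after quantile normalization. EIF2AK1, the heme-regulated kinase, was listed at 22.6 and 23.5 FPKM, a log2 change of 0.06. EIF2AK3, the kinase of the endoplasmic reticulum, was the least abundant and had the highest change of the 9 genes, 0.27, from 7.31 to 8.80 FPKM. EIF2AK1 and EIF2AK3 lay above 0 under every scaling, up to 0.28 and 0.49 with equal sums.

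As deposited, EIF2AK3 was the only member higher by at least 1.2-fold, at 1.202-fold, a limit that 23.8% of all expressed genes passed in that direction. It fell short of that limit with 1 FPKM added (0.24 on the log2 scale), and EIF2AK1 passed it as well with equal sums (0.28). Its change stood at percentile 76.3 of all expressed genes and at percentile 74.8 of genes of its level. The other kinases stood at percentiles 61.3 (EIF2AK1), 48.1 (EIF2AK2) and 41.9 (EIF2AK4) of all expressed genes. Among genes of their level they stood at percentiles 71.7, 64.5 and 49.0, so that EIF2AK1 lay near EIF2AK3 by that measure. EIF2AK2 exceeded EIF2AK3 8.04-fold in normoxia and 6.27-fold in hypoxia. EIF2AK4 and EIF2AK1 had similar levels and stood in opposite order in the conditions, EIF2AK4 being 1.13-fold above EIF2AK1 in normoxia and 0.968 of it in hypoxia, a difference that without replicate values cannot be set against error. EIF2AK2 made up 51.47% of the summed kinase FPKM in normoxia and 50.02% in hypoxia, and EIF2AK3 made up 6.40% and 7.98%.

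Transcript values were available for the kinases with more than 1 listed transcript. EIF2AK2 had 3, and NM_001135651 carried 93.3% of the gene's FPKM in normoxia and 94.3% in hypoxia, at 54.78 and 52.04 FPKM. NM_002759 was listed at 3.29 and 2.64 FPKM and NM_001135652 at 0.646 and 0.492, with log2 changes of -0.31 and -0.33 against -0.07 for the main transcript. EIF2AK1 had 2, of which NM_014413 carried 88.6% in normoxia and 87.9% in hypoxia, at 20.01 and 20.7 FPKM, and NM_001134335 was listed at 2.58 and 2.85 FPKM. The leading transcript of each gene thus held nearly the same share in both conditions. Of the 12 member transcripts, all of which passed 0.5 FPKM, 1 (the EIF2S1 transcript) was called lower and 0 higher, against 14.3% and 10.5% of all expressed transcripts.

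In hg19 the EIF2AK2 entry spans positions 37332284 to 37384190 of chromosome 2, that of EIF2AK3 (NM_004836) 88838238 to 88927094 of the same chromosome, and that of EIF2AK4 (NM_001013703) 40226347 to 40327797 of chromosome 15. The EIF2AK1 entry, at 6048882 to 6098860 of chromosome 7, also covers AIMP2, a scaffold of the multi-tRNA synthetase complex that is transcribed from the opposite strand. The exons of their main transcripts share 532 of the 4411 exonic bases of EIF2AK1. AIMP2 stood at 80.2 FPKM in normoxia against 31.6 in hypoxia (-1.34 on the log2 scale), while EIF2AK1 was nearly level. The libraries were stranded, but whether strand was used in quantification is not given in the sources used here, and the part of the shared bases in the EIF2AK1 value was not tested. The EIF2AK3 entry also covers the antisense RNA EIF2AK3-AS1, listed at 0.0486 and 0.122 FPKM.

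The phosphatase regulators were both lower by a similar amount. PPP1R15A, the inducible regulator and a known target of the ATF4 and CHOP pathway, stood at 12.6 FPKM in normoxia against 9.08 in hypoxia, 1.38-fold lower (-0.46 on the log2 scale). PPP1R15B, the constitutive regulator, was listed at 19.5 and 14.7 FPKM, 1.33-fold lower with a log2 change of -0.41. Neither reached 1.5-fold, and both lay among the 33.0% of expressed genes that were lower by at least 1.2-fold, as did EIF2S1 and EIF2S2. They remained below 0 under each scaling, at -0.24 and -0.19 with equal sums and at -0.41 and -0.32 after quantile normalization. Among genes of their level, PPP1R15A stood at percentile 15.8 and PPP1R15B at 22.2, where the medians of the level classes were -0.07 and -0.11.

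PPP1R15B exceeded PPP1R15A 1.56-fold in normoxia and 1.62-fold in hypoxia, so the constitutive regulator was the more abundant in both conditions. In hg19 the PPP1R15A entry (NM_014330) spans positions 49375649 to 49379319 of chromosome 19, and the PPP1R15B entry (NM_032833) 204372492 to 204380944 of chromosome 1. The summed FPKM of the kinases was 3.55 times that of the phosphatase regulators in normoxia and 4.64 times in hypoxia. For the subunits, the summed FPKM was 4.94 times that of the kinases in normoxia and 3.90 times in hypoxia, and 17.6 and 18.1 times that of the phosphatase regulators. In these sums, as deposited, the kinases were nearly level, at 114 and 110 FPKM, while the subunits went from 564 to 430 and the phosphatase regulators from 32.1 to 23.8. With equal sums 0 of the 4 kinases lay below 0. The median log2 change was then 0.21 for the kinases, -0.23 for the subunits and -0.21 for the phosphatase regulators.

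**Figure D3:**
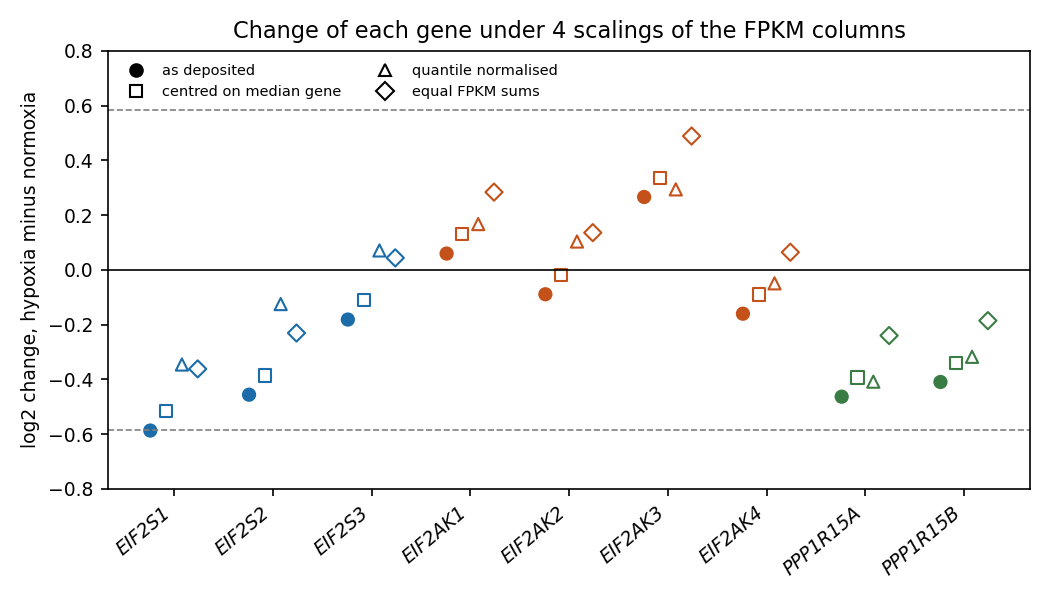
Log2 change (hypoxia minus normoxia) of each gene as deposited (filled circles) and with changes centred on the median gene, quantile normalised columns or equal FPKM sums (open symbols), coloured by role, with dashed lines at 1.5-fold. EIF2S1, EIF2S2, PPP1R15A and PPP1R15B lie below 0 and EIF2AK1 and EIF2AK3 above 0 in all 4 versions, whereas EIF2S3, EIF2AK2 and EIF2AK4 lie on either side of 0 depending on the version.

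Upstream start codons in the leader of an mRNA are a feature by which some mRNAs of this pathway escape or resist the block when eIF2 is phosphorylated, PPP1R15A and PPP1R15B among them. In the main annotated transcripts, 6 of the 9 genes had at least 1 ATG in the leader and 4 had a reading frame there that opened and closed before the coding sequence, against 41.9% and 35.1% of 18880 coding transcripts. PPP1R15A held 2 such closed frames, of 22 and 26 codons, in a leader of 240 bases. PPP1R15B held 2, of 8 and 51 codons, in a leader of 406 bases. EIF2S1 held 1 of 25 codons and EIF2AK2 1 of 5 codons, whereas EIF2S3, EIF2AK1 and EIF2AK4 had no upstream ATG. These are features of the annotation, and translation was not measured in this data set.

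Promoter sequences, from 250 bases before to 50 bases after the annotated start, were found in RefSeq (GRCh38.p14) for 7 of the 9 genes, not for EIF2S2 and EIF2AK1. Motifs were searched on both strands, and a match describes the letters alone. The hypoxia response element core ACGTG occurred in EIF2AK2 and EIF2AK3, and the variant GCGTG in EIF2S1, EIF2AK4, PPP1R15A and PPP1R15B, against 21.6% and 36.3% of all 27305 promoters. The cyclic AMP response element TGACGTCA occurred in PPP1R15A, 58 bases before the start, and in 1.98% of all promoters. TGATGNAA, the core of the combined C/EBP and ATF element, occurred in PPP1R15B and in 3.67% of all promoters. The interferon response motif, TTTC and a second TTTC with NN between them, occurred in EIF2AK2 and in 3.65% of all promoters. The matches that are rare among promoters are shown with their neighbouring bases on the strand of the gene, with the motif in capitals. They lie at chr19:48872355-48872378 for PPP1R15A, chr1:204412029-204412052 for PPP1R15B and chr2:37156970-37156993 for EIF2AK2, where the motif reads on the opposite strand.
PPP1R15A promoter: tctcttcgTGACGTCAgcacgccg
PPP1R15B promoter: gccccggcTGATGCAAcctcacgc
EIF2AK2 promoter: ccaagggGAAAACGAAActgagaa

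The other genes of the pathway are described by lists, in which a member was counted when it passed 0.5 FPKM. The counts stand beside 11.2% of all expressed genes called lower, 9.95% called higher and 56.4% below 0 as deposited. With equal sums 36.2% lay below 0, and 599 of 12127 were past 1.5-fold lower and 2219 higher. After quantile normalization 51.5% lay below 0, and 1177 of 12107 were past 1.5-fold lower and 1211 higher. Among the genes for the 5 subunits of eIF2B, the exchange factor inhibited by phosphorylated eIF2, 3 were called lower and 0 higher, with a median log2 change of -0.61, and those called were EIF2B3 (30.2 to 15.6 FPKM, -0.95), EIF2B1 (-0.61) and EIF2B5 (-0.61). All 5 lay below 0 under each scaling, and with equal sums EIF2B3 was the only one still past 1.5-fold. The median level of the 5 was 22.9 FPKM. Of all genes between 21.7 and 35.8 FPKM, 65.7% lay below 0 as deposited, with a median of -0.15. The summed FPKM of the eIF2 subunits was 3.24 times that of the eIF2B subunits in normoxia and 3.59 times in hypoxia. Of 13 partners of eIF2 in start site selection, 3 were called lower and 0 higher, with a median of -0.47. They were EIF5 (the GTPase activating protein of eIF2, -0.70), BZW2 (an eIF5 mimic, -0.66) and CDC123 (the eIF2 assembly factor, from 114 to 75.1 FPKM, -0.60). Of these 13 genes 12 lay below 0 as deposited, 9 with equal sums and 11 after quantile normalization, and 0 were past 1.5-fold under the latter scalings. The median level of the 13 was 69.8 FPKM. Of all genes between 35.9 and 72.5 FPKM, 73.1% lay below 0 as deposited, with a median of -0.20.

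Of 12 regulators of the kinases, 1 was called lower and 0 higher, against 11.2% and 9.95% of all expressed genes. Their median log2 change was -0.02, which became 0.05 when centred on the median gene, 0.20 with equal sums and 0.18 after quantile normalization. TARBP2, an inhibitor of EIF2AK2, was the one called, at 8.12 and 5.33 FPKM (-0.60), and was not past 1.5-fold with equal sums (-0.38). With equal sums 0 of the 12 were past 1.5-fold lower and 2 higher, HSPA5 (0.67) and ADAR (0.60), which were named after their values were seen. Of 12127 expressed genes, 599 were past 1.5-fold lower and 2219 higher with equal sums. The catalytic subunits of phosphatase 1, PPP1CA, PPP1CB and PPP1CC, were not called, with log2 changes of -0.32, -0.50 and -0.15, of which that of PPP1CC became 0.08 with equal sums and 0.15 after quantile normalization. Beside EIF2AK3, the unfolded protein response runs through the sensors ERN1 and ATF6, the ATF6 relative ATF6B, and XBP1, the transcription factor whose mRNA ERN1 splices. Of these, XBP1 was called lower (195.1 and 129 FPKM, -0.37 with equal sums and then not called) and ATF6B higher (3.75 and 6.31 FPKM), ATF6 was not called (-0.29) and ERN1 did not pass the limit. The 45 other EIF genes include the eIF2B genes and the start site partners with EIF symbols. EIF2B1, EIF2B3, EIF2B5 and EIF5, called lower above, are therefore counted again here. Over these 45 genes, 44 of them expressed, 12 (27.3%) were called lower and 1 (2.27%) higher, with a median of -0.40. Of these EIF genes 36 lay below 0 as deposited, 31 with equal sums and 33 after quantile normalization. Of all expressed genes 56.4%, 36.2% and 51.5% did so. With equal sums 4 EIF genes were past 1.5-fold lower and 2 higher, with a median of -0.18, and after quantile normalization 5 and 1, with a median of -0.22. The median level of the EIF genes was 57.7 FPKM. Of all genes between 35.9 and 72.5 FPKM, 73.1% lay below 0 as deposited, with a median of -0.20. Over 25 expressed genes of other phosphatase 1 regulatory subunits (symbols beginning with PPP1R), 1 (4%) was called lower and 4 (16%) higher, against 11.2% and 9.95% of all expressed genes. Their median of 0.14 became 0.00462 after quantile normalization, 0.21 when centred on the median gene and 0.36 with equal sums. With equal sums 0 were past 1.5-fold lower and 7 higher, against 599 and 2219 of 12127 expressed genes, whose median was then 0.15. The median level of these PPP1R genes was 4.92 FPKM. For all genes between 3.56 and 5.82 FPKM the median change was -0.01 as deposited.

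ATF4 and genes activated through it stand downstream of eIF2 phosphorylation. Of 27 listed, 26 passed the limit. Of these 6 (23.1%) were called lower and 4 (15.4%) higher, against 11.2% and 9.95% of all expressed genes. Their median log2 change was -0.37, which became -0.15 with equal sums and -0.17 after quantile normalization. The largest differences downward were those of the cystine transporter SLC7A11 (18.8 to 4.99 FPKM, -1.89), CHAC1 (0.929 to 0.353 FPKM, -1.18), which degrades glutathione, and the stress cytokine GDF15 (7.17 to 3.57 FPKM, -0.99). The largest upward were VLDLR (0.356 to 3.13 FPKM, 2.82), DDIT4 (1.86) and STC2 (1.12), which are also known targets of the hypoxia-inducible factors. VLDLR in normoxia and CHAC1 in hypoxia lay below the limit, which applies to the mean over the conditions. The sizes of their changes therefore rest on low values and are uncertain. The RNA of ATF4 itself was listed at 330 and 191 FPKM (-0.79) and that of DDIT3, which encodes CHOP, at 48.6 and 28.6 FPKM (-0.76). ATF4 and DDIT3 were named after their values were seen. Of the 26 genes, 20 lay below 0 as deposited, 15 with equal sums and 17 after quantile normalization. Of all expressed genes 56.4%, 36.2% and 51.5% did so. With equal sums 3 of the 26 were past 1.5-fold lower (SLC7A11, CHAC1 and GDF15) and 4 higher, against 599 and 2219 of 12127 expressed genes. The protein of ATF4, which is the step that eIF2 phosphorylation controls, was not part of these data.

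Interferon-stimulated genes were examined because EIF2AK2 is one of them. All 24 on the list passed the limit. Of these 4 (16.7%) were called lower and 2 (8.33%) higher, against 11.2% and 9.95% of all expressed genes. The median log2 change was -0.01, that of EIF2AK2 itself being -0.09. The median became 0.06 when centred on the median gene, 0.21 with equal sums and 0.15 after quantile normalization. With equal sums 1 gene was past 1.5-fold lower (IFI27) and 4 higher, against 599 and 2219 of 12127 expressed genes. IFI27 had the lowest value (34.4 to 6.97 FPKM, -2.29), followed by OASL (-0.73) and IFIT3 (-0.72). IRF7 (0.609 to 1.496 FPKM, 1.17) and OAS3 (0.64) were those called higher.

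**Figure D4:**
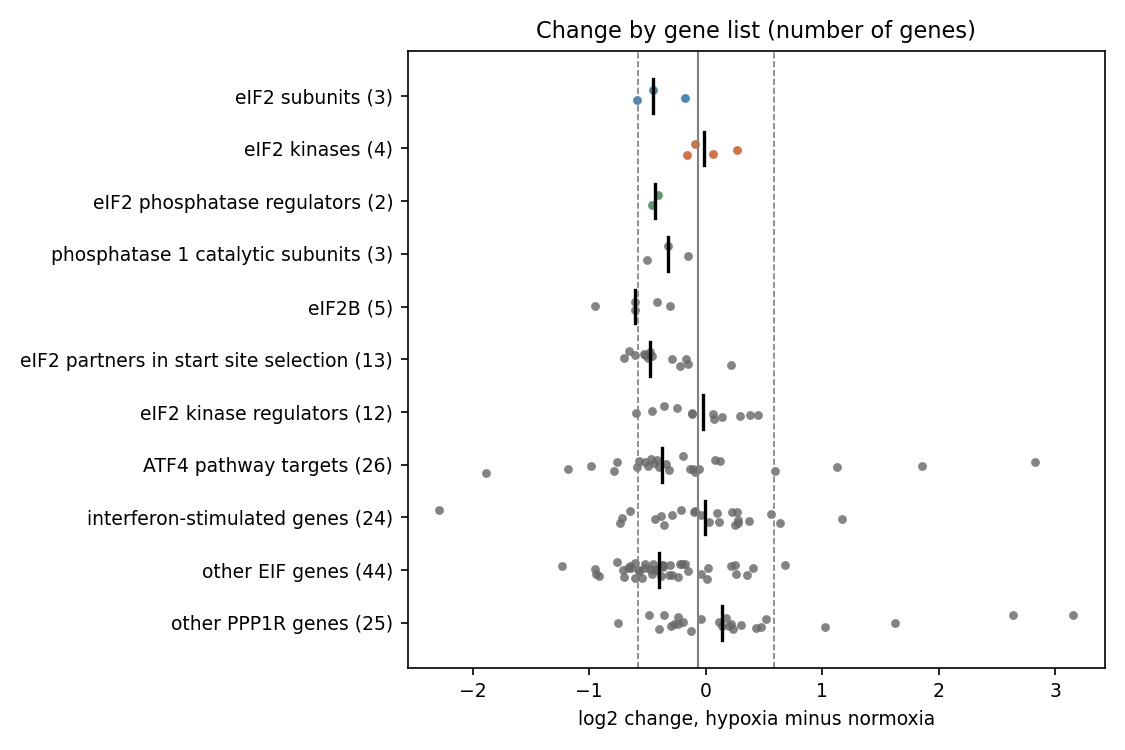
Log2 change (hypoxia minus normoxia, as deposited) of every expressed gene in each list, with a black bar at the list's median, a solid line at the median of all genes and dashed lines at 1.5-fold. The kinases lie around the median of all genes, and the subunits, phosphatase regulators, eIF2B genes and start site partners lie mostly to its left, the change of EIF2S3 (-0.18) turning to 0.04 with equal sums.

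The treatment and the cell type were checked in the same table. Of 10 genes of the hypoxia response, the 9 that were listed were all called higher, against 9.95% of all expressed genes. Their median log2 change was 2.35, and LDHA was not analysed here. The squamous epithelial markers KRT5, KRT17, TP63, DSG3, ITGB4 and SFN summed to 527 FPKM in normoxia and 574 in hypoxia, with KRT5 at 398 and 442, and KRT14 was not analysed here. The markers of leukocytes, endothelium, fibroblasts and other cell types summed to 15.1 and 15.0 FPKM, led by ACTA2 (7.57 and 8.62), with CDH5 at 4.78 and 2.83. Of these 9 markers 5 were listed and 3 passed 0.5 FPKM (ACTA2, CDH5 and CD68), and PTPRC, PECAM1, COL1A1 and RBFOX3 were not analysed here.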

How the data were processed

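SQ20B cells in normoxia and in 0.5% O2 for 16 h were compared, with 4 replicates each. Samples were grouped by their source label and title, since the treatment text of the labels is the same for all samples. The authors aligned stranded poly(A)-selected reads to hg19 with STAR 2.3.0.1 and used Cufflinks 2.1.1 with RefSeq annotation. The deposited table holds FPKM computed by the authors, a single value for each condition. Depths and read counts of single samples were not analysed here, so the precision of a value is unknown and no interval is given. The authors' fold changes, test statistics, p-values and q-values in the same table were not used.

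RefSeq transcripts were paired with symbols through RefSeq GRCh38.p14, used for names and promoters, which matched 24293 of 24812 entries (97.9%). FPKM was summed per gene, and log2 changes were computed with 0.1 added for genes with a mean of at least 0.5 FPKM. The added value understates the change of low genes. Calls at 1.5-fold rest on size alone, and no test across libraries was run, since values of single libraries were not analysed here. The start of each deposited locus was moved by 1 base to count from 1. Leaders and coding sites came from GENCODE v44 lifted to GRCh37, with 1 main (MANE Select) transcript per gene. All members and, of each list, the called genes with the largest changes (at most 3 in each direction) are named. The members are defined by gene identity, but this set and the lists were chosen with earlier results of these data known, so their choice may reflect those values. Alternatives to the added value, limit, scaling, transcripts and fold were tried. The calling step was run on simulated data with planted 2-fold changes and little noise. This checks the arithmetic only and does not bear on calls near the limit, such as that of EIF2S1, or on replicate spread. Python 3.11.15, numpy 2.4.6, pandas 2.3.3 and matplotlib 3.10.9 were used. A coding site of 1 member is not reported here.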

Additional observations from a re-analysis of the deposited data

How the results depend on the processing

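The count of member genes called lower, 1 as reported (EIF2S1), was 0 with 1 FPKM added, with changes centred on the median gene, with equal FPKM sums, after quantile normalization and at a 2-fold limit, and 4 at a 1.2-fold limit. The count called higher, 0 as reported, was 1 at a 1.2-fold limit. The median log2 change of the member genes, -0.18 as reported, was 0.0434 with equal FPKM sums and -0.0496 after quantile normalization. The count of member transcripts called lower, 1 as reported, was 0 with 1 FPKM added and with equal FPKM sums. Of 171 alternative values for single member genes and list medians, 35 moved by 0.1 or more on the log2 scale. These moves were not spread evenly: equal FPKM sums moved all 19 values and quantile normalization moved 14 of 19. A change of the filter on low values cannot move the value of a single gene, so the share that stayed does not measure robustness. With equal FPKM sums, 2219 of all expressed genes were called higher and 599 lower, against 1204 and 1361 as deposited, 1499 and 1060 when centred on the median gene, and 719 and 1031 with 1 FPKM added. No paired analysis was possible because the table gives 1 value per condition, so neither the fit with the replicate number as a block nor the one leaving out each replicate was run. The depth behind each value is unknown.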
